A study of Mus musculus with 18 samples.

Results

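The genes described here are the cytosolic ribosomal protein genes, which encode the proteins of the 40S and 60S subunits of the ribosome of the cytoplasm. They were taken by name: symbols that begin with Rpl or Rps followed by a number, together with Rplp0, Rplp1, Rplp2 and Rpsa. The kinases of ribosomal protein S6 and rows named as pseudogenes were left out. 82 of the 15402 rows of the table had such a name, and 81 of them passed the filter of a mean log2 value of at least 3, among 13190 genes that were tested. Rpl3l, a paralog of Rpl3, was the row that did not pass, at a mean of 0.04. The 81 genes comprised 42 canonical genes of the 60S subunit, 31 canonical genes of the 40S subunit, the 3 genes of the acidic P-stalk (Rplp0, Rplp1 and Rplp2) and 5 paralogs (Rpl7l1, Rpl22l1, Rpl39l, Rps4l and Rps27l).

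RNA-seq was carried out on CD4+ T cells from the inguinal and axillary lymph nodes of female C57/BL6 Foxp3Timer Foxp3-IRES-GFP mice, 5 days after 3% oxazolone had been put on the skin of the abdomen. The labels give no age, and the methods describe this sensitisation for mice of 5 to 10 weeks. In these mice a Timer protein, which turns from blue to red as it matures, reports transcription of Foxp3, the transcription factor of regulatory T cells (Treg). All groups carried both reporters and had received oxazolone, so no untreated group was compared. 6 populations were sorted, with 3 libraries each: Tnaive (CD44lo, Timer-), Teff (activated effector cells, CD44hi, Timer-), Pers1 and Pers2 (persistent Foxp3 transcription, with blue fluorescence), PAt (quiescent Treg, mostly red) and Arrested (Treg with Timer protein but no blue fluorescence). Each replicate was a pool of 3 mice. The values are log2 normalised counts as the authors deposited them, in the form of a regularised log transform; they are not divided by transcript length, and the depth of the libraries is unknown. In all 18 libraries the genes that mark CD4+ T cells were high, with Cd3e between population means of 13.66 and 13.87. Others of these genes varied more. The population means of Cd4 ran from 14.49 in PAt to 15.67 in Teff, and those of Cd28 from 12.97 to 14.20 in the same populations. Foxp3 lay between 10.38 and 11.38 in the libraries of Tnaive and Teff and between 14.36 and 14.85 in those of the other 4 populations, and Cd44 was lowest in Tnaive, at 9.47 to 9.72.

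As background, ribosomal proteins are made in large and nearly equal amounts, and their mRNAs are among the most abundant of a growing cell. Most of these mRNAs begin with a cytosine followed by an uninterrupted run of pyrimidines, the 5′ terminal oligopyrimidine (TOP) motif, through which mTORC1 signalling and the RNA-binding protein LARP1 control their translation and stability. Naive T cells are known to hold ribosomes and repressed mRNAs in store, and activated T cells make new ribosomes as they grow.

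The sequence around the annotated start of 60 of the 81 genes was found in the RefSeq table of promoters (GRCm38.p6), in 71 windows of 60 bases, 30 before and 30 from the start. The windows below belong to the 8 genes that were lowest or highest in Pers1 and Pers2 relative to PAt and Arrested, with no overlap of libraries. Capitals mark the longest run of C and T in the window, read on the strand of the gene. Where a gene had several annotated starts, the window with the longest run is shown.
Rps27 (chr3:90213619-90213678, minus strand): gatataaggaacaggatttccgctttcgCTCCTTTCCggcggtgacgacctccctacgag
Rps19 (chr7:24884883-24884942, plus strand): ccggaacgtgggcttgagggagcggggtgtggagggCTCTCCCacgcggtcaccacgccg
Rpl12 (chr2:32961682-32961741, plus strand): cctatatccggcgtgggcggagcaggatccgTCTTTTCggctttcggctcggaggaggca
Rps24 (chr14:24490723-24490782, plus strand): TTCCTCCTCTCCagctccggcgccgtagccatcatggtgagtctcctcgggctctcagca
Rps16 (chr7:28350659-28350718, plus strand): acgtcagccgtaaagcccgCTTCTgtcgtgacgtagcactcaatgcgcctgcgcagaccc
Rps27l (chr9:66946056-66946115, plus strand): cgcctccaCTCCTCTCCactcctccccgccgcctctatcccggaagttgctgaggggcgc
Rpl7l1 (chr17:46782627-46782686, minus strand): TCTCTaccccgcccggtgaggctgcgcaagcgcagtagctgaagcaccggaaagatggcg
Rps12 (chr10:23787180-23787239, minus strand): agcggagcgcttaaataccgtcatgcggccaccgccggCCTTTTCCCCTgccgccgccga

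A run of at least 8 pyrimidines was found in 34 of the 60 genes (56.7%), against 25.5% of the 9938 tested genes that had a window. A run of at least 10 was found in 43.3% of the ribosomal protein genes and in 13% of the tested genes. The letters CTTTCC were found on the strand of the gene in 20% of them, against 3.46%, and on the other strand in 3.33%, against 3%. These matches describe the letters in the windows only. Runs of 8 or more occurred both among the genes shown that fell (Rps27 and Rps24) and among those that rose (Rps27l and Rps12).

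Of the 76 canonical and P-stalk genes, 73 had a mean log2 value between 13.55 and 16.71. Levels of different genes are compared per kilobase of transcript, as log2 values less the log2 of the length. On that scale the median of the 76 genes was 15.4, and the highest were Rplp1 (16.64), a P-stalk protein that takes part in the recruitment of elongation factors, Rps29 (16.20) and Rplp0 (16.18), the base of that stalk. Rpl30 (5.86), Rpl34 (7.06) and Rps27 (8.55) lay far below all other canonical genes, whose lowest was Rps20 at 13.09. The length used is that of 1 annotated transcript per gene. For Rps20 that transcript has 3706 bases, and the mean log2 value of this gene before division by length was 14.98. Among the paralogs Rpl39l had a level of 5.18, Rps27l of 10.57, Rpl7l1 of 10.78 and Rpl22l1 of 12.53. GENCODE vM21 lists Rps4l as a transcribed processed pseudogene, and no level per length was computed for it.

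Ribosomal protein genes have many processed pseudogenes, to which reads of the parent gene can map. Of the 80 genes with an annotated coding sequence, 74 had at least 1 other copy in the annotated transcripts with 95% identity over 80% of that sequence. The median was 5 copies and the highest number was 56, for Rpl21, whose mean log2 value was 15.2. Rpl30 had 12 such copies, Rpl34 had 5 and Rps27 had 3. How reads that fit several places were counted is not given in the sources used here, so the levels of genes with copies, and above all of Rpl30, Rpl34 and Rps27, are uncertain. 34 of the 81 genes also overlapped another gene on the same strand, in many cases a small nucleolar RNA in an intron, and 24 overlapped a gene on the opposite strand.

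**Figure D1:**
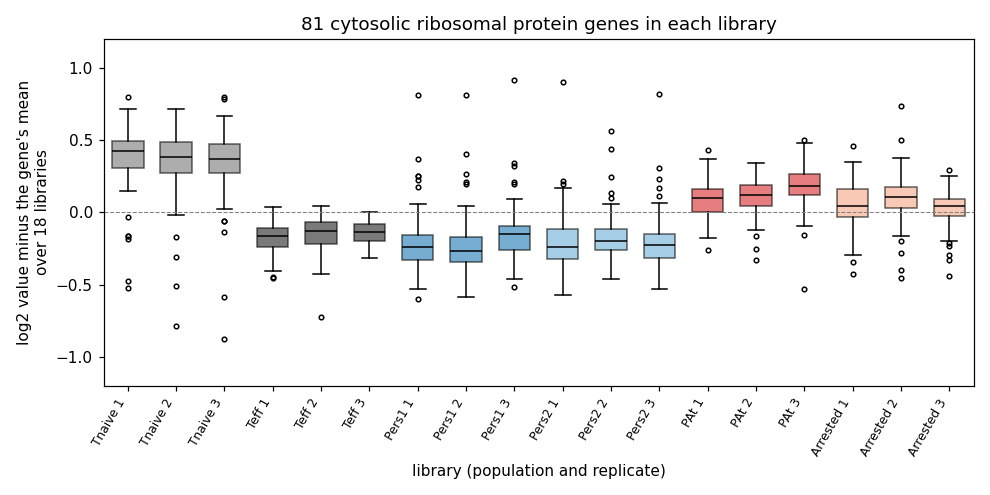
Log2 value of each of the 81 ribosomal protein genes minus that gene's mean over the 18 libraries (y axis), by library (x axis); boxes show the quartiles and the median, whiskers reach 1.5 times the interquartile range, and 1 point, Rpl30 in Teff replicate 3, lies outside the axis. The 3 Tnaive libraries have the highest medians (0.37 to 0.42), PAt and Arrested lie above 0, and Teff, Pers1 and Pers2 lie below it.

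Ribosomal protein genes were highest in Tnaive and lowest in the 2 persistent populations and Teff, with PAt and Arrested between them. Tnaive had the highest mean of the 6 populations for 71 of the 81 genes. Pers1 had the lowest mean for 36 genes, Pers2 for 24, Teff for 15, Arrested for 4 and Tnaive for 2. The moderated F test of limma found a difference among the populations for 79 genes at an adjusted p under 0.05, against 85.0% of all genes tested, so that a difference of some kind was common to most genes in the table. The range between the lowest and highest population mean had a median of 0.68 over the 81 genes, and the SD between the 3 libraries of a population had a median of 0.054.

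The plot of the 81 genes by library shows how these groups lay library by library. With each gene centred on its own mean, the median of the 81 genes was 0.42, 0.38 and 0.37 in the Tnaive libraries. It was 0.10, 0.12 and 0.18 in PAt and 0.04, 0.11 and 0.04 in Arrested. It was -0.16, -0.13 and -0.14 in Teff, -0.24, -0.27 and -0.15 in Pers1, and -0.24, -0.20 and -0.23 in Pers2. The libraries of Tnaive therefore did not overlap with any other on this measure, and those of PAt and Arrested did not overlap with those of Teff, Pers1 and Pers2.

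When the log2 values were converted back to a linear scale, the 81 genes made up 10.6% ± 0.128 (SD, n = 3) of the sum over all genes in Tnaive. PAt and Arrested came next, with shares of 9.06% ± 0.285 and 8.59% ± 0.176, and Teff and Pers1 were lower, with 7.58% ± 0.0879 and 6.93% ± 0.202. The shares of these 5 populations did not overlap with one another, and those of Pers2 (6.92% to 7.14%) lay within the range of Pers1 (6.77% to 7.16%). These values are relative to the other transcripts of a library. In sorted bulk populations, fewer cells that express a gene and less RNA of it per cell cannot be told apart.

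The first comparison asked how Treg with persistent Foxp3 transcription (Pers1 and Pers2, 6 libraries) differ from PAt and Arrested Treg (6 libraries). PAt cells were sorted as low in blue and high in red fluorescence, which the paper reads as less frequent Foxp3 transcription. Levels of Foxp3 were 14.36 to 14.65 in PAt, 14.40 to 14.45 in Arrested and 14.56 to 14.85 in the persistent libraries. 65 of the 81 ribosomal protein genes were lower in the persistent populations, against 35.1% of all genes tested, and 4 were higher, against 35.9% (limma, adjusted p under 0.05). The median log2 fold change of the 81 genes was -0.32, a change of -20.0%, while that of all genes tested was -0.01. Most changes were small but unequal: the quartiles of the 81 genes were -0.45 and -0.20. The study's thresholds also ask for an absolute log2 fold change over 1. Applied to this limma comparison, they called Rps27l alone among the 81 genes, against 7.51% of all genes. The study used its thresholds with DESeq2 on comparisons of single populations, so its own rule was not repeated here. For 60 of the 81 genes all 6 persistent libraries lay below all 6 libraries of PAt and Arrested, against 21.8% of all genes.

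**Figure D2:**
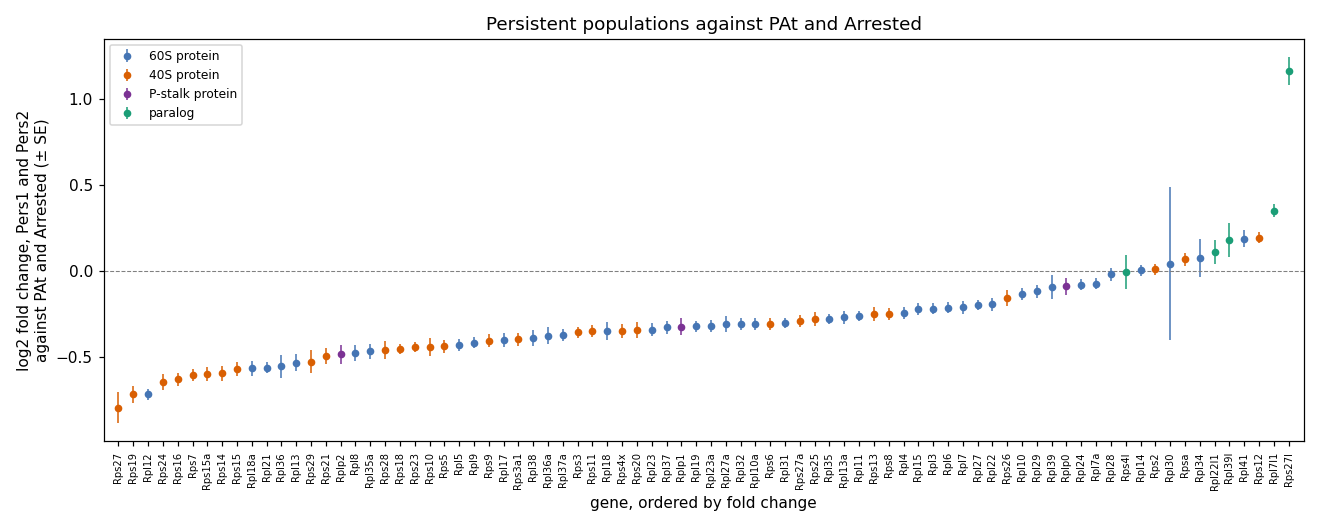
Log2 fold change of Pers1 and Pers2 against PAt and Arrested (y axis, points with bars of 1 SE from limma) for 80 of the 81 ribosomal protein genes, ordered by fold change (x axis) and coloured by class. Values run from -0.80 for Rps27 to 1.17 for Rps27l, and the 5 paralogs all lie in the upper part of the order.

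In the 40S subunit, 28 of 31 canonical genes were lower in the persistent populations and 1, Rps12, was higher, with a median log2 fold change of -0.41. Rps19, which is mutated in Diamond-Blackfan anaemia and is needed to process the 18S rRNA precursor, had values from 14.12 to 14.21 in the persistent libraries (median 14.13) and from 14.74 to 15.08 in those of PAt and Arrested (median 14.85). The libraries did not overlap, and the log2 fold change was -0.72 ± 0.049 (SE), with an adjusted p of 3.63e-11 from limma. Rps24, another protein of 18S rRNA maturation, ran from 15.09 to 15.37 in the persistent libraries and from 15.73 to 15.99 in the others (log2 fold change -0.65). Rps16, whose tail reaches the decoding site, ran from 14.96 to 15.09 and from 15.56 to 15.74 (log2 fold change -0.63). Each of the 3 genes thus showed a gap between the groups that was wider than the range within the persistent libraries.

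Rps27, a zinc-binding protein of the 40S subunit, had the lowest fold change of all 81 genes. Its values were 6.42 to 6.73 in the persistent libraries (median 6.54) and 7.20 to 7.76 in PAt and Arrested (median 7.28). The log2 fold change was -0.80 ± 0.089 (SE), with an adjusted p of 7.73e-08 from limma, on a level far under that of the other canonical genes, as described above. Rps6, the substrate of the S6 kinases, was 15.67 to 15.77 in the persistent libraries and 15.86 to 16.13 in PAt and Arrested, again without overlap (log2 fold change -0.31). Rps4x (-0.35), the X-linked form of a 40S protein, and Rps27a (-0.29), which is translated as a fusion with ubiquitin, also fell. Rpsa, which is known as the laminin receptor as well, had a log2 fold change of 0.07 (adjusted p from limma 0.132) and Rps2, near the site at which mRNA enters the subunit, of 0.01.

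Rps12, a protein of the beak of the 40S subunit, went the other way. Its values were 15.07 to 15.14 in the persistent libraries and 14.84 to 14.99 in PAt and Arrested, a log2 fold change of 0.19 ± 0.033 (SE) with an adjusted p of 2.34e-05 from limma. The groups did not overlap. 21 near-identical copies and 3 small RNA genes on the same strand were annotated for Rps12.

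In the 60S subunit, 35 of 42 canonical genes were lower and 1, Rpl41, was higher, with a median log2 fold change of -0.31. Rpl12, which forms the base on which the P-stalk sits, was 15.03 to 15.12 in the persistent libraries (median 15.05) and 15.74 to 15.82 in PAt and Arrested (median 15.77). Its log2 fold change was -0.72 ± 0.032 (SE), with an adjusted p of 3.16e-14 from limma, and the gap between the groups was many times the spread within them. Rpl5 (-0.43) and Rpl11 (-0.26), which bind the 5S rRNA and, when free of ribosomes, the p53 regulator MDM2, fell as well. So did Rpl38 (-0.39), known for its part in the translation of Hox mRNAs, Rpl13a (-0.27), Rpl3 (-0.22) of the peptidyl transferase centre, Rpl7 (-0.21), Rpl22 (-0.20), which developing αβ T cells require, and Rpl10 (-0.13), a late-joining protein of the subunit. After quantile normalisation Rpl3 and Rpl10 no longer passed the test.

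Among the 60S genes that were not lower, Rpl41, the smallest protein of the ribosome, had overlapping values of 14.93 to 15.16 in the persistent libraries and 14.67 to 15.00 in the others, with a log2 fold change of 0.19 (adjusted p from limma 0.00187). Rpl39 of the exit tunnel had a log2 fold change of -0.09, Rpl28 of -0.02, Rpl14 of 0.0042, Rpl30 of 0.04 and Rpl34 of 0.07, and none of these passed the test. Rpl39 passed it with the replicate number as a block (adjusted p from limma 0.0409) or without Pers2 replicate 3 (0.0334). Rpl14 was 14.29 to 14.37 in the persistent libraries and 14.24 to 14.44 in the others, so the former lay wholly within the range of the latter. Of the P-stalk genes, Rplp2 (-0.49) and Rplp1 (-0.32) fell, while Rplp0 (-0.09) did not pass the test (adjusted p from limma 0.0431 with the replicate block and 0.0151 without Arrested replicate 3).

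The 2 paralogs that rose were Rps27l and Rpl7l1. Rps27l, a paralog of Rps27 that is known as a target of p53, was 10.13 to 10.48 in the persistent libraries (median 10.38) and 9.04 to 9.31 in PAt and Arrested (median 9.23). This was a log2 fold change of 1.17 ± 0.080 (SE), or 2.24-fold, with an adjusted p of 3.80e-11 from limma. Rpl7l1 was 11.27 to 11.51 in the persistent libraries and 10.94 to 11.19 in the others, without overlap (log2 fold change 0.35, adjusted p from limma 2.98e-08). Rpl39l (0.18), Rpl22l1 (0.11) and Rps4l (-0.01) did not pass the test. Rpl39l did with the replicate block (adjusted p 0.0428) or without Pers1 replicate 2 (0.0201), Rpl22l1 did without Pers1 replicate 1 (0.0165), and the sign of Rps4l turned with the library left out.

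Markers of B cells moved with this comparison. All 6 of the B cell markers measured were lower in the persistent populations, with a median log2 fold change of -0.95. Their summed level, as a log2 value, was 10.5 to 10.8 in the libraries of Pers1 and Pers2 and 11.3 to 11.9 in those of PAt and Arrested. From Tnaive, the lowest population, to Teff, the highest, the means ran from 8.21 to 10.21 for Cd79a and from 6.76 to 9.17 for Ms4a1. 3 of 5 markers of CD8 and NK cells were lower and 1, Klrb1c, was higher (summed level 9.88 to 10.4 against 10.6 to 10.8). 1 of 5 tested myeloid markers was lower (8.36 to 9.21 against 8.86 to 9.49). All 5 markers of CD4+ T cells were higher in the persistent populations, against 35.9% of all genes, with a median log2 fold change of 0.18. The part of these marker shifts in the values of the ribosomal protein genes was not tested.

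The comparison of Teff with Tnaive asked how activated and naive conventional T cells differ. 75 of the 81 genes were lower in Teff, against 27.7% of all genes tested, and 1 was higher, against 31.3%, with a median log2 fold change of -0.56 (-0.27 after quantile normalisation, against -0.25 for the comparison of the Treg populations). All 31 canonical 40S genes, 40 of 42 canonical 60S genes and all 3 P-stalk genes fell. For 75 genes all 3 Teff libraries lay below all 3 Tnaive libraries, against 30.8% of all genes. No gene of the 81 reached an absolute log2 fold change over 1 with an adjusted p under 0.05, or with an unadjusted p under 0.05, against 11.2% of all genes by the adjusted p.

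Rps24 was 16.39, 16.35 and 16.48 in Tnaive and 15.44, 15.47 and 15.45 in Teff. Its log2 fold change of -0.95 ± 0.063 (SE) was the lowest of the 81 genes (adjusted p from limma 3.04e-11). Rps19 was 15.22, 15.20 and 15.19 in Tnaive and 14.20, 14.30 and 14.28 in Teff, a log2 fold change of -0.94. The 3 libraries of each population lay close together for both genes, about a whole log2 unit apart between the populations.

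Rpl36a (-0.89), Rpl12 (-0.86) and Rpl5 (-0.86) were the lowest of the 60S genes. Rplp1 was 16.21, 16.21 and 16.22 in Tnaive and 15.50, 15.39 and 15.55 in Teff (log2 fold change -0.73), and Rplp2 (-0.64) and Rplp0 (-0.45) also fell. At the other end of the canonical genes, Rpsa had a log2 fold change of -0.16, Rpl29 of -0.19 and Rpl22 of -0.28, all of which passed the test, although the value of Rpsa turned to 0.02 after quantile normalisation and missed the threshold without Teff replicate 1 or Tnaive replicate 1. Rpl13a (-0.36) turned to 0.0030 after quantile normalisation. Rpl24, which forms a bridge between the subunits, did not pass it, at -0.04 (values 14.14, 14.15 and 14.19 in Tnaive and 14.09, 14.16 and 14.12 in Teff). Rpl30 did not pass either, at 1.02 ± 0.631 (SE): it was listed at 4.60, 4.62 and 8.80 in Teff, so a single library set its mean.

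Rps27l was the gene that rose, with 9.09, 8.78 and 8.69 in Tnaive and 9.21, 9.58 and 9.41 in Teff (log2 fold change 0.54, adjusted p from limma 0.000319). Leaving out Teff replicate 1 or 2 made 2 genes higher. Rpl22l1, by contrast, fell by 0.61 on the log2 scale, from 12.07, 11.99 and 12.06 to 11.31, 11.53 and 11.47. The values of the other 3 paralogs were 0.09 for Rpl7l1, 0.23 for Rps4l and -0.09 for Rpl39l, and none passed the test. The value of Rps4l turned to -0.23 after quantile normalisation, and that of Rpl39l ran from -0.20 to 0.04 when single libraries were left out. Teff libraries also held more transcripts of other cells. All 6 B cell markers were higher in Teff (median log2 fold change 2.21, summed level 11.5 to 12.2 against 9.54 to 9.96), as were all 5 myeloid markers tested (median 3.35, summed level 11.3 to 11.6 against 8.91 to 9.26). 4 of 5 CD8 and NK markers were higher and 1, Eomes, was lower (11.7 to 12.2 against 10.8 to 11.1). Of the 5 markers of CD4+ T cells, 4 were higher in Teff and none was lower, with a median log2 fold change of 0.33. The part of these marker shifts in the fall of ribosomal protein genes was not tested. In the comparison of the Treg populations the B cell markers were lower in the persistent populations, as given above, and their part was not tested there either.

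PAt and Arrested lay below Tnaive. 70 of the 81 ribosomal protein genes were lower than in Tnaive, against 23.8% of all genes, and 2 were higher, against 26.9%, with a median log2 fold change of -0.27. Rpl31, of the exit tunnel of the 60S subunit, had the lowest value, with 15.35, 15.26 and 15.26 in Tnaive, 14.76, 14.78 and 14.75 in PAt and 14.68, 14.68 and 14.73 in Arrested (log2 fold change -0.56 ± 0.038 SE, adjusted p from limma 4.96e-11). The next were Rps29 (-0.55), Rpl5 (-0.54), Rpl14 (-0.53) and Rps24 (-0.53). Rpl14 lay between 14.24 and 14.44 in all libraries of the 4 Treg populations and was 14.88, 14.88 and 14.83 in Tnaive.

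The members that were higher than in Tnaive were paralogs, Rps4l and Rps27l. Rps4l was 6.30, 6.31 and 6.24 in Tnaive, 7.25, 6.74 and 6.87 in PAt and 7.17, 7.32 and 6.86 in Arrested (log2 fold change 0.76, adjusted p from limma 1.85e-05). Rps27l had a log2 fold change of 0.35, with libraries that overlapped (adjusted p from limma 0.00523, and 0.0543 without Tnaive replicate 3, which leaves 1 gene higher). After quantile normalisation 34 genes were lower and 4 higher, with a median of -0.09. All 6 B cell markers were higher in PAt and Arrested than in Tnaive (summed level 11.3 to 11.9 against 9.54 to 9.96), and 2 of 5 CD8 and NK markers and 2 of 5 myeloid markers tested were higher and 1 of each lower. Their part was not tested.

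**Figure D3:**
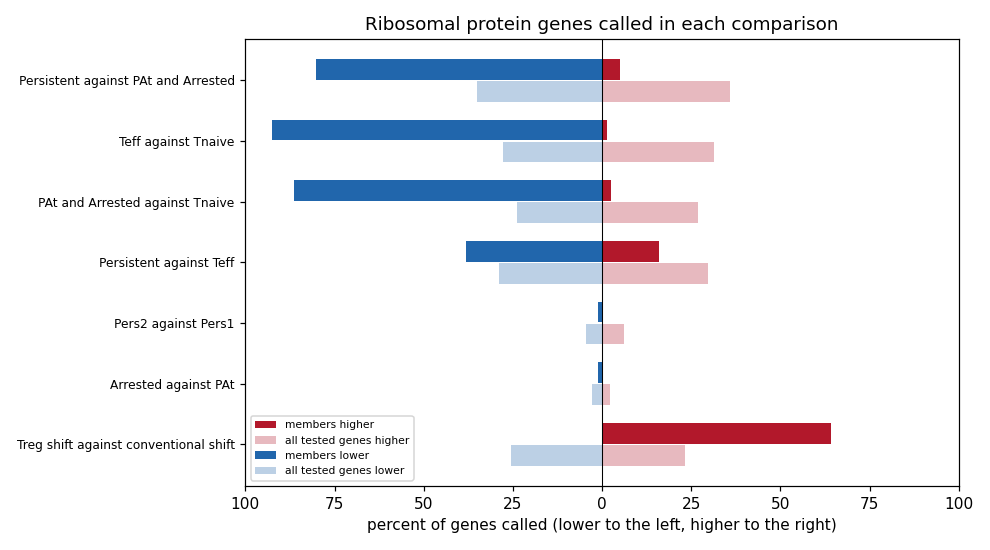
Percent of genes called lower (left) or higher (right) by limma at an adjusted p under 0.05 in each of 7 comparisons, for the 81 ribosomal protein genes (dark bars) and for all 13190 genes tested (pale bars). The dark bars reach furthest to the left for Teff against Tnaive, where 75 genes were lower, and nearly vanish in the comparisons within a pair of Treg populations.

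Persistent Treg and Teff lay closer to each other. 31 of the 81 genes were lower in Pers1 and Pers2 than in Teff, against 28.9% of all genes, and 13 were higher, against 29.8%, with a median log2 fold change of -0.08. The share of genes that were lower was thus nearer to that of the whole table than in the comparisons above. Rpl12 was 15.40, 15.41 and 15.45 in Teff, above all 6 persistent libraries (log2 fold change -0.36 ± 0.039 SE, adjusted p from limma 8.28e-08). Rps27 (-0.32), Rpl21 (-0.29), Rpl31 (-0.27) and Rps21 (-0.26) followed among the genes whose libraries did not overlap.

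All 5 paralogs were among the 13 genes that were higher in the persistent populations than in Teff. Rps27l had a log2 fold change of 0.97 (adjusted p from limma 2.84e-08), Rps4l of 0.52, Rpl39l of 0.36, Rpl7l1 of 0.26 and Rpl22l1 of 0.26. Of the canonical genes, Rpl34 had a log2 fold change of 0.52, Rps2 of 0.36, Rpl39 of 0.31, Rpl41 of 0.22, Rpl7a and Rpl14 of 0.20, Rps12 of 0.13 and Rpl3 of 0.11. Rps2 was 15.17, 15.16 and 15.19 in Teff, 15.57, 15.55 and 15.60 in Pers1 and 15.51, 15.53 and 15.43 in Pers2, so the populations were wholly apart. With each library centred on its median, 47 genes rather than 31 were lower, and Rpl22l1 and Rpl3 no longer passed the test. Rps27 and Rpl39l missed the threshold without Teff replicate 2, Rpl22l1 without Teff replicate 1, and Rpl3 without any of 4 libraries (Pers1 replicate 3, Pers2 replicate 1 and Teff replicates 1 and 3). All 6 B cell markers, all 5 myeloid markers tested and all 5 CD8 and NK markers were lower in the persistent populations. Their summed levels were 11.5 to 12.2, 11.3 to 11.6 and 11.7 to 12.2 in Teff and 10.5 to 10.8, 8.36 to 9.21 and 9.88 to 10.4 in the persistent libraries, and their part was not tested.

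Within the pairs of Treg populations, few ribosomal protein genes passed the adjusted threshold. Between Pers2 and Pers1, no gene was higher by the adjusted p of limma, against 6.02% of all genes, and 4 were higher at an unadjusted p under 0.05, against 12.8%. 1 gene was lower, against 4.56%, and 3 were lower at an unadjusted p under 0.05, against 11.2%. With the replicate block 2 genes were higher. Leaving out Pers1 replicate 3, Pers2 replicate 1 or Pers2 replicate 2 left no gene lower.

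Between Arrested and PAt, no gene was higher, against 2.07% of all genes, and none was higher at an unadjusted p under 0.05 either, against 7.92%. 1 was lower, against 2.97%, while 27 were lower at an unadjusted p under 0.05, against 10.2% of all genes, and the median log2 fold change was -0.07. The gene that was called was Rpl32, of the 60S subunit, with 15.07, 15.16 and 15.24 in PAt and 14.97, 15.00 and 15.01 in Arrested (log2 fold change -0.17, adjusted p from limma 0.0481). For 25 genes all 3 Arrested libraries lay below all 3 PAt libraries, against 1336 of the 13190 genes tested. The reverse held for 1 gene, against 1034 of all genes. With the replicate block 4 genes were lower by the adjusted p. Leaving out PAt replicate 1 gave 5, and leaving out either of the other PAt libraries, Arrested replicate 1 or Arrested replicate 2 gave 0, so this count turned on single libraries.

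The last of the comparisons asked whether the shift within Treg (Pers1 and Pers2 against PAt and Arrested) differed from that within conventional T cells (Teff against Tnaive). These 2 shifts share no library. By the test of their difference, 52 of the 81 genes had a higher value in the Treg shift, that is a smaller decrease or a larger increase, against 23.2% of all genes. None had a lower value, against 25.5%, and none did at an unadjusted p under 0.05 either. The median difference was 0.21 on the log2 scale. After quantile normalisation, however, 19 genes had a higher and 11 a lower value, with a median of -0.01, so the direction of the median rested on the scaling. Markers of other cells moved with this difference. All 6 B cell markers (median -3.02), all 5 myeloid markers tested (median -3.32) and 4 of 5 CD8 and NK markers (median -1.40) were lower in it, and their part was not tested.

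**Figure D4:**
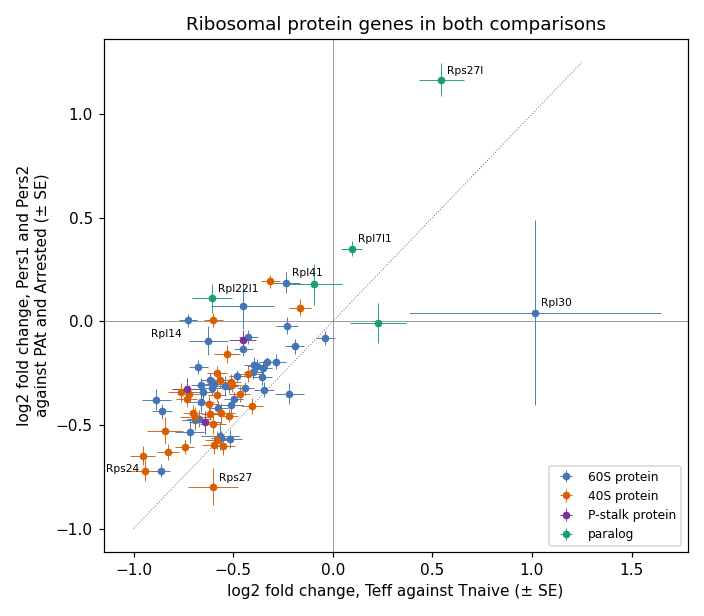
Log2 fold change of each of the 81 ribosomal protein genes in Teff against Tnaive (x axis) and in Pers1 and Pers2 against PAt and Arrested (y axis), with bars of 1 SE from limma; the dotted line marks equal values. Most points lie at the lower left and above the line, Rps27l is positive on both axes (0.54 and 1.17), and the long bar of Rpl30 reflects 1 Teff library.

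The largest differences between the shifts were those of Rpl14 (0.73 ± 0.055 SE, adjusted p from limma 4.95e-10), Rpl22l1 (0.72, adjusted p 5.70e-05) and Rps27l (0.62, adjusted p 0.000868). After quantile normalisation the 3 values were 0.52, 0.67 and 0.69, all past the threshold. Rpl14 and Rpl22l1 fell in Teff and did not pass the test within Treg, while Rps27l rose in both and more so within Treg. Rps2 (0.61), Rpl39 (0.53) and Rps12 (0.50) also differed. At the other end, Rpl30 (-0.97), whose mean in Teff was raised by 1 library, Rps4l (-0.23), Rps27 (-0.20) and Rpl18 (-0.13) had the lowest values and did not pass the test. Over the 81 genes the 2 sets of log2 fold changes had a Pearson correlation of 0.69 and a Spearman correlation of 0.64. This describes genes, which are not independent replicates and share length, base composition and copies across all libraries.

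The paralogs were set against their canonical genes within each library, as the difference of the 2 log2 values, so that scaling of the whole library has no part in it. The 6 persistent libraries were compared with the 6 of PAt and Arrested by an exact two-sided permutation test over the 5 pairs. Its smallest possible p is 0.00216. Each group of 6 holds 2 populations from each of 3 replicate numbers, and this test treats all 6 as independent. A test added after seeing the data exchanged libraries only within a replicate number, with a smallest possible p of 0.00926. In it the pairs of Rps27l, Rpl7l1 and Rpl22l1 had an adjusted p of 0.0154 (exact permutation test). Rps27l minus Rps27 was 3.83 ± 0.225 (SD, n = 6) in the persistent libraries and 1.86 ± 0.268 in the others. With free exchange of libraries the difference of 1.96 reached the smallest p of 0.00216 (exact permutation test, adjusted p 0.00361). The lowest persistent library (3.40) lay above the highest of the others (2.10). In Tnaive the value was 1.39 ± 0.253 and in Teff 2.54 ± 0.140 (n = 3 each). The level of Rps27 is uncertain, as described above, so the size of this ratio is uncertain too. Taken singly, the log2 fold changes between the Treg groups were 1.17 for Rps27l and -0.80 for Rps27.

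Rpl7l1 minus Rpl7 was -4.10 ± 0.072 in the persistent libraries, -4.67 ± 0.081 in PAt and Arrested, -4.88 ± 0.064 in Tnaive and -4.39 ± 0.051 in Teff (SD), and the difference of 0.56 between the Treg groups had an adjusted p of 0.00361 in the exact permutation test. Rpl22l1 minus Rpl22 showed another order. It was -1.73 ± 0.153 in the persistent libraries and -1.72 ± 0.064 in Tnaive, and -2.04 ± 0.111 in PAt and Arrested and -2.04 ± 0.078 in Teff. The difference of 0.31 between the Treg groups had an adjusted p of 0.00361 in the exact permutation test. The groups did not overlap but nearly met, at -1.89 in the lowest persistent library and -1.91 in the highest of the others. The single log2 fold changes were 0.11 for Rpl22l1, which did not pass the test of limma, and -0.20 for Rpl22. The Rpl22 protein is known to repress expression of Rpl22l1.

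For Rpl39l minus Rpl39 the difference was 0.27 (exact permutation test, p = 0.0455, adjusted p 0.0563), and for Rps4l minus Rps4x it was 0.34 (p = 0.0563, adjusted p 0.0563 in the exact permutation test). The libraries of the groups overlapped in both. When libraries were exchanged only within a replicate number, which allows 216 splits, both passed the threshold (adjusted p 0.0185, exact permutation test). Rpl39l also did without Pers1 replicate 2, Pers2 replicate 3 or Arrested replicate 1, and Rps4l without Arrested replicate 1. Rps4l minus Rps4x was -10.12 ± 0.049 in Tnaive and -9.17 ± 0.066 in Teff, so the lowest values of this pair lay in Tnaive. Rpl39l and Rps4l were listed at low levels, and the transform that the authors used draws differences of such genes towards 0.

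**Figure D5:**
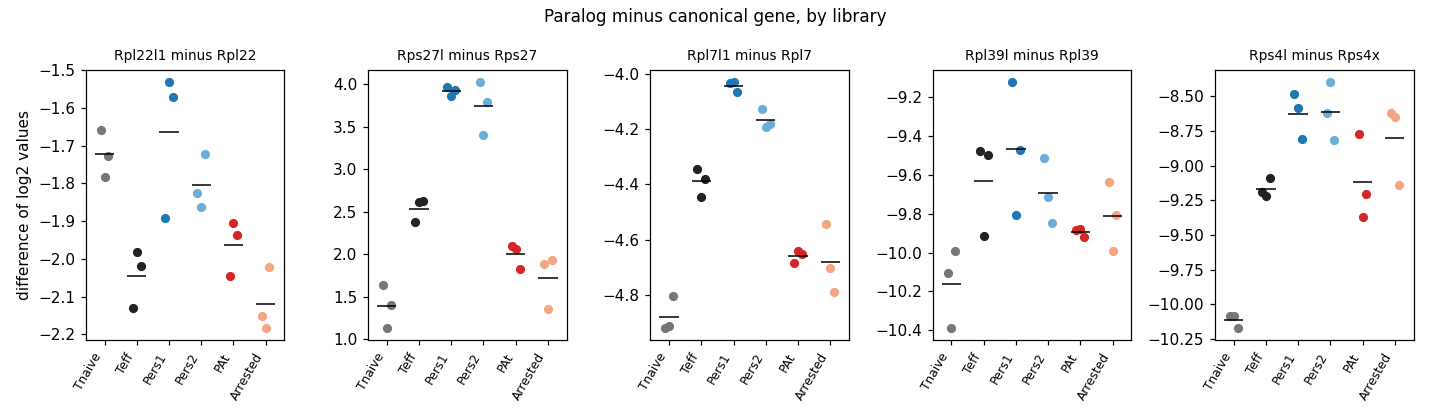
Difference of log2 values between each of 5 paralogs and its canonical gene (y axis, a scale of its own in each panel), with 1 point per library and a line at the mean of each population (x axis). In the panel of Rps27l the 6 persistent libraries lie between 3.40 and 4.02, above all other libraries, on an uncertain level of Rps27. In the panel of Rpl22l1 Tnaive lies level with the persistent libraries.

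The genes were also grouped by their near-identical copies and by the run of pyrimidines, with no test of the differences. For Pers1 and Pers2 against PAt and Arrested, the median log2 fold change was -0.40 for the 6 genes without a copy, -0.33 for the 37 with 1 to 5 copies and -0.31 for the 37 with more. It was -0.61, -0.52 and -0.57 between Teff and Tnaive. The 34 genes with a run of at least 8 pyrimidines had medians of -0.31 and -0.54 in these 2 comparisons, and the 26 with a shorter run of -0.35 and -0.58. 5 rows named as ribosomal protein pseudogenes were measured as well, of which 4 were lower in the persistent populations (median -0.84). Rps15a-ps6 had a log2 fold change of -0.88 and Rps15a-ps4 of -0.47.

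Other genes of translation are given next, where all genes tested were higher in 35.9% and lower in 35.1% for the persistent populations against PAt and Arrested, and higher in 31.3% and lower in 27.7% for Teff against Tnaive. Of the 4 ribosomal genes outside the naming rule, 3 were lower in the persistent populations, among them Fau (-0.39) and Gnb2l1 (-0.31), which encodes the RACK1 protein of the 40S subunit, and Rpl36al (0.18), a paralog of Rpl36a, was higher. Of 6 elongation factor genes, 3 were lower and 1 was higher. Eef1b2 (-0.23) and Eef1d (-0.21), subunits of the exchange factor of eEF1A, were the lowest and Eif5a (0.36) was the highest. Between Teff and Tnaive 5 of these 6 were lower and none was higher, with a median log2 fold change of -0.37. Of 12 subunits of eIF3, which brings the 40S subunit to the mRNA, 8 were higher in the persistent populations and 1 was lower. Eif3c (0.44) and Eif3l (0.41) were the highest and Eif3g (-0.22) was the lowest.

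Of 77 genes for ribosomal proteins of the mitochondrion, 55 were higher in Pers1 and Pers2, 7 were lower and 15 did not pass the test, with a median log2 fold change of 0.30, against -0.01 for all genes tested. Mrps6 (0.91) and Mrpl54 (0.82) were the highest and Mrpl38 (-0.55) and Mrpl24 (-0.30) the lowest. Between Teff and Tnaive, 16 of the 77 were higher and 17 lower, with a median of -0.02.

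Among 10 other genes whose mRNAs carry a TOP motif, 5 were higher in the persistent populations and 4 were lower. Ybx1 (0.79), an mRNA-binding protein, and Nap1l1 (0.63), a histone chaperone, were the highest, and Eif4a2 (-0.65), a helicase of translation initiation, and Hnrnpa1 (-0.49) the lowest. Of 19 genes of mTORC1 and its control of TOP mRNAs, 5 were higher and 10 were lower. Sesn1 (-0.74), a leucine-responsive inhibitor of mTORC1, and Tsc1 (-0.53), a subunit of the TSC complex that inhibits it, were the lowest. Tbc1d7 (0.63), another subunit of that complex, and Eif4ebp1 (0.56), a repressor of cap-dependent translation, were the highest. Of 10 genes for chaperones of ribosomal proteins and assembly factors of the ribosome, 3 were lower (Nob1 -0.42, Tsr2 -0.41 and Pdcd2l -0.23), a share below that of all genes, and none was higher. Between Teff and Tnaive, 8 of these 10 were lower, with a median of -0.45.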

How the data were processed

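RNA-seq was performed on 18 libraries of 6 sorted T-cell populations, with 3 replicates each. Per the labels and the methods, the authors prepared stranded mRNA libraries, converted reads with CASAVA 1.8.2, checked them with FastQC 0.11.2, aligned them with TopHat2 2.0.9 to mm10 (a version with the Timer sequence was also used) and normalised counts with DESeq2. The counting tool, its annotation and its use of strand are not given in the sources used here. The deposited values are log2 normalised counts. No read counts were used, so the precision rests on the spread between replicate libraries. The p-values of the main model measure that spread, with libraries of the same replicate number treated as independent. Where such libraries came from the same pool of mice, these p-values do not measure the spread between pools.

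One linear model of the 6 populations was fitted to all 18 libraries for the 13190 genes with a mean of at least 3, which left 12 residual degrees of freedom. It used limma 3.58.1 (R 4.3.3), a variance trend and Benjamini-Hochberg adjustment over all genes tested. Every adjusted p of a fold change is from this model. The members, gene lists and the rule for named genes were chosen with earlier results of these data known. Genes named are a list of 25 ribosomal proteins and paralogs, those with the 5 highest and 5 lowest fold changes (3 within pairs of Treg populations and between shifts) among called genes whose libraries did not overlap, those with the 3 highest and 3 lowest levels, and in other lists the 2 highest and 2 lowest called. The following were named after their values were seen: Rpl41, Rps2, Rpl14, Rpl24, Rpl28, Rpl29, Rpl18, Rps20 and Rpl7a. On simulated data with 200 changed genes among 13190, a log2 effect of 0.3 between persistent populations and PAt and Arrested was recovered for 61.5% of genes. There were 8 false calls. The simulated noise was independent between libraries, and in the data far more genes were called in this comparison (35.9% higher and 35.1% lower). These rates therefore do not carry over to the data.

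The replicate number was taken as pairing libraries, since the design text in the labels describes a sort of all 6 populations from the same material. The deviations of 45 same-numbered pairs of libraries had a median correlation of 0.17 (-0.21 to 0.44), and those of 90 other pairs of -0.06. Fits with the number as a block were an alternative, with other scalings, filters and left-out libraries. Coordinates and copies came from GENCODE vM21 (GRCm38) with BLAST+ 2.17.0, promoter windows from RefSeq GRCm38.p6. Values of some single genes are not reported here.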

Additional observations from a re-analysis of the deposited data

Results flagged for a closer look

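The difference between the Treg shift (Pers1 and Pers2 against PAt and Arrested) and the conventional shift (Teff against Tnaive) passed the test of limma for 52 of the 81 ribosomal protein genes, all with a higher value within Treg. This count fell to 19, with 11 genes in the other direction, after quantile normalisation. The 3 genes with the largest differences were Rpl14 (0.73 on the log2 scale), Rpl22l1 (0.72) and Rps27l (0.62), and these kept their direction and passed the threshold under every scaling tried.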

How the results depend on the processing

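Quantile normalisation forces the same distribution on every library. The median log2 fold change of the 81 genes became -0.25 for the persistent populations against PAt and Arrested, -0.27 for Teff against Tnaive, -0.089 for PAt and Arrested against Tnaive and -0.0051 for the difference between the shifts. In that last comparison 19 genes were higher and 11 lower, in PAt and Arrested against Tnaive 4 and 34, and within each pair of Treg populations 2 were lower, with 2 higher in Pers2. Reversed values were 0.031 for Rps4l and -0.000641 for Rpsa in the persistent populations against PAt and Arrested, 0.0030 for Rpl13a, 0.019 for Rpsa and -0.23 for Rps4l in Teff against Tnaive, and 0.045 for Rpl7 in PAt and Arrested against Tnaive, none of which passed the test; the cause was not tested. With libraries centred on their medians, the medians were -0.39, -0.65 and -0.35 in the first 3 of these comparisons and -0.14 for the persistent populations against Teff, where 47 genes were lower, and none was lower in Arrested against PAt.

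With the replicate number as a block, 4 genes were lower in Arrested against PAt and 2 higher in Pers2 against Pers1, and the pairs Rpl39l with Rpl39 and Rps4l with Rps4x passed the threshold (differences of 0.27 and 0.34). Their adjusted p was 0.0185 over the 216 exchanges within numbers, an exact permutation test added after seeing the data whose smallest p is 0.00926. The other 3 pairs reached that smallest p (adjusted p 0.0154). A permutation test over all splits of values centred on the replicate number gave Rpl39l and Rps4l an adjusted p of 0.00649. It exchanges centred values between replicate numbers, which the pairing does not allow, so this p can be too small. Without a variance trend no gene was lower within either pair, and with only PAt and Arrested fitted none was lower there. Without the paralogs, 8 genes were higher in the persistent populations than in Teff, 2 were higher in them than in the other Treg, and none was higher in Teff or in PAt and Arrested than in Tnaive. An alternative added after seeing the data kept only genes with at most 5 near-identical copies, which leaves fewer genes. Of these, 34 fell in the persistent populations, 4 of the 6 without a copy and 30 of the 37 with 1 to 5. In Teff 39 fell, 4 of the 6 and 35 of the 37. Of the 37 genes with over 5 copies, 31 and 36 fell. The shares of all genes tested that were lower were 35.1% and 27.7%.

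Leaving out 1 library at a time gave 0 to 5 genes lower and 0 to 1 higher in Arrested against PAt, 0 to 1 lower and 0 to 1 higher in Pers2 against Pers1, 1 to 2 higher in PAt and Arrested against Tnaive, 1 to 2 higher in Teff against Tnaive, and paralog differences of 0.18 to 0.33 for Rpl39l and 0.26 to 0.41 for Rps4l. The log2 fold change of Rps4l in the persistent populations against PAt and Arrested ran from -0.071 to 0.067, and that of Rpl39l in Teff against Tnaive from -0.196 to 0.041. Counts of genes lower stayed within 64 to 66 in the persistent populations against PAt and Arrested, 72 to 75 in Teff and 67 to 70 in PAt and Arrested against Tnaive. Of 1602 values of single genes under all alternatives, 1526 kept their direction and side of the threshold, 54 lost the call, 9 gained it and 13 changed sign. The depth of the libraries is unknown.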
